A study of Rattus norvegicus with 20 samples.

Results

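The genes described are the Hox genes of the rat kidney, 43 protein-coding rows whose symbol is Hox followed by a cluster letter from a to d and a number in the tacrolimus table, out of 32883 rows there. All 43 rows were found by gene identifier in the cyclosporine A table, which lists 32545 rows, with the same position and length. They carry 37 symbols and fall into HoxA (15 rows), HoxB (10 rows), HoxC (9 rows) and HoxD (9 rows). Their RNA was measured by bulk RNA sequencing of 20 whole-kidney samples from wild-type male Wistar rats, 10 to 12 weeks old. A calcineurin inhibitor, an immunosuppressant used after organ transplantation, or its vehicle was given for 28 days by a minipump under the skin. Cyclosporine A (n = 4, with a target trough given in the series' design as 3 mg/ml) was compared with saline vehicle (n = 4). Tacrolimus (n = 6, target trough 3.5 ng/ml) was compared with a vehicle of 25% DMSO and 75% polyethylene glycol, called DMSO/PEG vehicle here (n = 6). All 4 groups share strain, sex, age range and duration, and each drug has its own vehicle and its own table, so the drugs were not compared with each other.

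Hox genes encode homeodomain transcription factors that give cells of the embryo their position along the head to tail axis. They lie in clusters, and numbers run from 1 at the 3′ end, whose genes are active early and towards the head, to 13 at the 5′ end, whose genes are active late and towards the tail. Genes with the same number in different clusters, called paralogues, arose from 1 ancestral gene. In the developing kidney, the paralogues numbered 11 are needed for the metanephric kidney to form, Hoxb7 is active in the ureteric bud and the collecting duct that grows from it, and retinoic acid is known to switch on genes near the 3′ end. Hox proteins bind DNA together with TALE cofactors such as Pbx and Meis, and Polycomb and trithorax proteins hold clusters silent or active.

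Upstream sequences of 3 HoxD genes are shown because these genes stand at opposite ends of the range of levels described below: Hoxd8 and Hoxd9 led their cluster, and Hoxd13 was at or near 0. Each is the 250 bases before the RefSeq start on the plus strand of GRCr8, a newer build than that of the deposited tables, at chr3:80014973-80015222 for Hoxd8, chr3:80007756-80008005 for Hoxd9 and chr3:79977827-79978076 for Hoxd13. Capitals mark matches on either strand to CCAAT or to TATAAA.
Hoxd8: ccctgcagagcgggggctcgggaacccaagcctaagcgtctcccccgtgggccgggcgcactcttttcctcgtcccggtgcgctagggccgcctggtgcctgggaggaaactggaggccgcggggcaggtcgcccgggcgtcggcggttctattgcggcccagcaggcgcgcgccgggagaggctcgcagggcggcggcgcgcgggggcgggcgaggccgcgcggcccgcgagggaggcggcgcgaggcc
Hoxd9: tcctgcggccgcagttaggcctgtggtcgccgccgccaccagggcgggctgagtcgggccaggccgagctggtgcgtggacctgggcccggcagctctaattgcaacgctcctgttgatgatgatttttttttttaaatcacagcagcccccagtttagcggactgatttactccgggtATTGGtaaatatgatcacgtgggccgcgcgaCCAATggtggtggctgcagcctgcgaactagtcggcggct
Hoxd13: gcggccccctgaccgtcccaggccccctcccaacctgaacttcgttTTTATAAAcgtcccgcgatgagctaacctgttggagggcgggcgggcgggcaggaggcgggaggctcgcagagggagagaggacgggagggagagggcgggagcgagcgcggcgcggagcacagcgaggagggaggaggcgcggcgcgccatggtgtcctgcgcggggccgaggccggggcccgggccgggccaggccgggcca
The windows hold 38, 20 and 30 CG dinucleotides in that order, against a median of 5 and a 90th percentile of 24 over 33469 RefSeq windows of this length. Hoxd9 holds 2 CCAAT matches, a motif found in 34.0% of all windows, and Hoxd13 holds 2 TATAAA matches that overlap on opposite strands, a motif found in 12.9%. Among these 3, the highest in level held the most CG dinucleotides, and Hoxd13, at or near 0, held more than Hoxd9. RefSeq windows were matched for 19 of the 37 symbols (20 windows), and these held 3 to 39 CG dinucleotides with a median of 19. Among the 20, CCAAT was found in 11, TATAAA in 4, the Hox-Pbx motif TGATNNAT in 3 (7.96% of all windows) and the homeodomain core TAATTA in 1 (4.86%).

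The clusters also hold microRNA genes, whose mature sequences from RefSeq (GRCr8) are shown because miR-196 is known for pairing with the Hoxb8 transcript and miR-10 for lying beside Hoxb4 and Hoxd4. Capitals mark the seed, bases 2 to 8.
rno-miR-10a-5p (in HoxB): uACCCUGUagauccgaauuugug
rno-miR-10b-5p (in HoxD): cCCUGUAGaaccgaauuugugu
rno-miR-196a-5p (in HoxC): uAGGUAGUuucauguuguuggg
rno-miR-196b-5p (in HoxA): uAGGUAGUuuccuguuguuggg
rno-miR-196c-5p (in HoxB): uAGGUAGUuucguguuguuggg
The 3 miR-196 members share the seed AGGUAGU, whereas the miR-10 pair, as annotated, starts 2 bases apart and has the seeds ACCCUGU and CCUGUAG. These libraries do not measure mature microRNAs, and the microRNA rows can collect fragments of longer transcripts that cross them. The source of their fragments was not tested. In the tacrolimus table the Mir10a row (chromosome 10, 84165950 to 84166059) ran from 0.81 to 4.14 FPKM with vehicle (median 2.67) and from 1.41 to 6.65 FPKM with tacrolimus (median 4.31), on at most 29 fragments. The Mir196c row ran from 0.74 to 3.87 FPKM with vehicle and from 0.97 to 3.30 FPKM with tacrolimus, on at most 11 fragments. The rows named Mir196a and Mir196b had none in any of the 20 libraries. Another row, Mir196b-2 (chromosome 4, 82284851), had at most 3 fragments per library in the tacrolimus table and 1 in the cyclosporine A table.

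Levels are FPKM, fragments relative to the listed gene length and to sequencing depth. Libraries held 30467652 to 39358485 fragments on genes, and 3 fragments, the floor used here, stand for 0.0277 to 0.150 FPKM depending on the member and library. In the cyclosporine A table, mitochondrial genes took 49.7 to 68.6% of fragments with saline vehicle and 80.2 to 90.8% with cyclosporine A (2-sided exact permutation p = 0.0286, the smallest that 4 against 4 allows), which left 10282872 to 17255791 and 2905422 to 6548795 nuclear fragments. In the tacrolimus table the share was 10.5 to 13.7% with vehicle and 10.8 to 15.9% with drug. The deposited cyclosporine A values take every fragment, mitochondrial ones too, as their total, so they were also divided by median-of-ratios factors (0.423 to 1.99), which equalise the typical gene between libraries and give what is called rescaled FPKM. Values of the tacrolimus table already had factors of 1. Proximal tubule markers (8 of 8) and podocyte markers (6 of 6) were measured in both tables, as in kidney.

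Adult kidney kept a broad but uneven Hox pattern. In DMSO/PEG vehicle kidneys, 20 of the 43 rows averaged 1 FPKM or more, the level called expressed here: 8 in HoxB, 6 in HoxC, 6 in HoxD and 0 in HoxA. In saline vehicle kidneys 16 rows did on deposited values, 8 in HoxB, 3 in HoxC and 5 in HoxD, and 15 did on rescaled values. Averages of 10 FPKM or more were reached by 7 rows in the tacrolimus table (5 in HoxB, 2 in HoxD) and by 8 rows in the cyclosporine A table as deposited (6 in HoxB, 2 in HoxD) or 5 as rescaled (3 in HoxB, 2 in HoxD). Any fragment at all was found for 32 rows in the tacrolimus table and 30 in the cyclosporine A table. The 2 tables were normalized separately, so levels are compared within each.

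**Figure D1:**
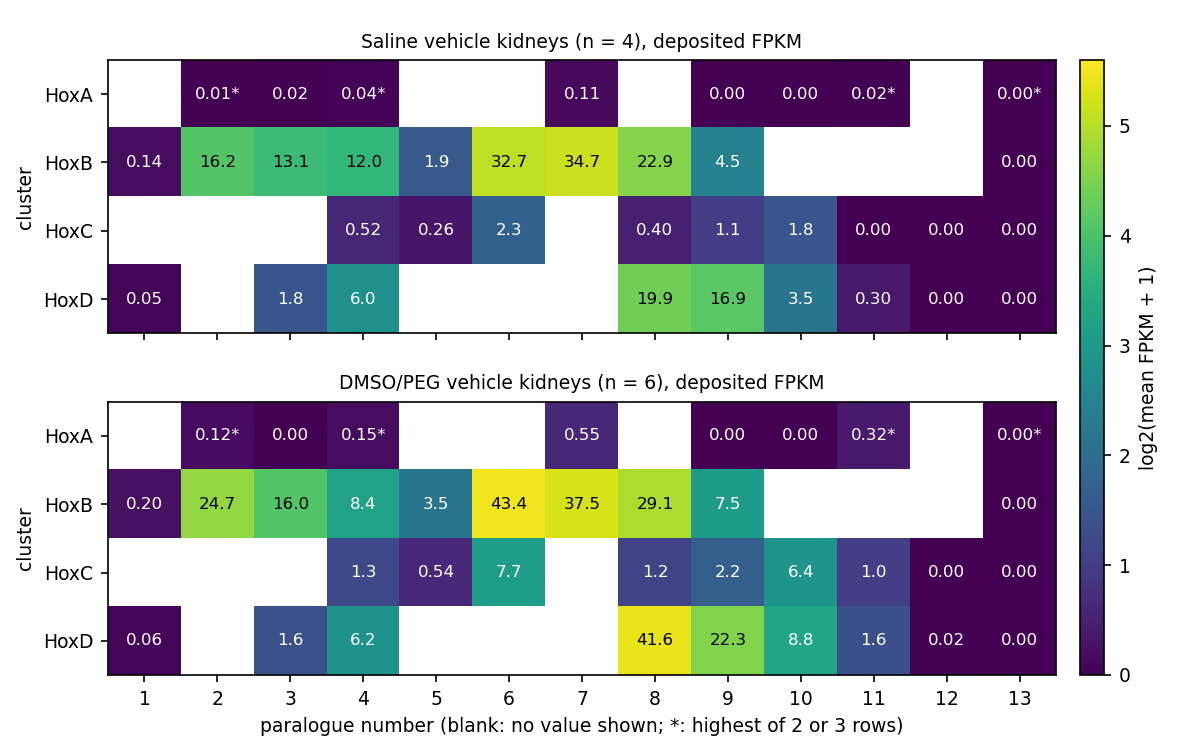
Mean deposited FPKM in vehicle kidneys for each cluster (rows) and paralogue number (columns), saline vehicle above (n = 4) and DMSO/PEG vehicle below (n = 6), with colour on a log2(FPKM + 1) scale. The brightest cells in both maps are Hoxb6, Hoxb7, Hoxb8 and Hoxd8, and the HoxA cells shown lie under 1 FPKM.

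HoxB was expressed along a continuous run from Hoxb2 to Hoxb9 (chromosome 10, cluster span 84031955 to 84215687 on rn6). Hoxb6 averaged 43.4 ± 10.3 FPKM (SD, n = 6) with DMSO/PEG vehicle and 32.7 ± 7.81 FPKM (SD, n = 4) with saline vehicle. Hoxb7, the gene whose promoter is widely used to mark the ureteric bud, averaged 37.5 ± 3.20 FPKM (SD, n = 6) and 34.7 ± 6.42 FPKM (SD, n = 4). Hoxb8, known from myeloid progenitors, averaged 29.1 ± 3.89 FPKM (SD, n = 6) and 22.9 ± 3.97 FPKM (SD, n = 4). These 3 neighbours overlapped their nearest rank in level, so their order is not fixed by the data. Hoxb2 (24.7 FPKM with DMSO/PEG vehicle, 16.2 with saline) and Hoxb3 (16.0 and 13.1) followed. Hoxb5 was the low point of the run, with 3.54 ± 0.66 FPKM (SD, n = 6) and 1.94 ± 0.52 FPKM (SD, n = 4), below both of its neighbours Hoxb4 and Hoxb6 in every vehicle library. The ends of the cluster were low: Hoxb1, a hindbrain gene, averaged 0.20 and 0.14 FPKM, and Hoxb13, known from prostate, had no fragment in any of the 20 libraries.

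HoxD (chromosome 3, 61590376 to 61687758) was expressed most at its middle. Hoxd8 (61627383 to 61628628) averaged 41.6 ± 5.20 FPKM (SD, n = 6) with DMSO/PEG vehicle and 19.9 ± 1.78 FPKM (SD, n = 4) with saline vehicle. Hoxd9 (61620192 to 61622359) averaged 22.3 ± 4.80 FPKM (SD, n = 6) and 16.9 ± 2.03 FPKM (SD, n = 4). The level fell on both sides of this pair. Towards the 5′ end, Hoxd10 averaged 8.84 and 3.52 FPKM, Hoxd11, one of the paralogues required for kidney formation, 1.59 and 0.30 FPKM, and Hoxd12 0.02 and 0 FPKM. Hoxd13, known for its role in digits and the genital tubercle, had 1 fragment in 1 of 12 libraries of the tacrolimus table and none in the 8 of the other. Towards the 3′ end, Hoxd4 averaged 6.23 and 6.00 FPKM, Hoxd3 1.60 and 1.83 FPKM, and Hoxd1 0.06 and 0.05 FPKM. The Hoxd4 row overlaps Mir10b and, on the other strand, AABR07052559.1, and the strand setting of the counting is not given in the sources used here, so its level can include their fragments.

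HoxC (chromosome 7, 144531814 to 144650129) was lower than HoxB and HoxD, and its share of the summed Hox FPKM differed between the tables. Hoxc6 averaged 7.74 ± 0.97 FPKM (SD, n = 6) with DMSO/PEG vehicle and 2.34 ± 0.60 FPKM (SD, n = 4) with saline vehicle. Hoxc10, known from lumbar patterning, averaged 6.41 ± 0.86 FPKM (SD, n = 6) and 1.81 ± 1.26 FPKM (SD, n = 4), and the 4 saline libraries read 0.89, 0.64, 2.44 and 3.28 FPKM. Hoxc4, Hoxc5, Hoxc8 and Hoxc9 lay between 0.54 and 2.24 FPKM on average with DMSO/PEG vehicle. Hoxc11 averaged 1.05 ± 0.21 FPKM (SD, n = 6) with DMSO/PEG vehicle, but in the other table fragments were found in a single kidney, given cyclosporine A, and numbered 6. Hoxc12 and Hoxc13 had no fragment in any library. HoxC took 5.75 to 9.49% of the summed Hox FPKM of a library in the tacrolimus table and 2.00 to 4.45% in the cyclosporine A table. Vehicle and table differ together, so their parts in this gap cannot be told apart.

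HoxA rows averaged under 1 FPKM in vehicle kidneys, but these rows are uncertain. The rn6 annotation places HoxA symbols on chromosome 4, there in part more than once, and on an unplaced scaffold (KL567939.1, 8 rows), and 5 symbols have 2 or more rows. Reads that match near-identical copies can be split or dropped, so these levels were not ranked against the other clusters. The highest row, Hoxa7 (chromosome 4, 82270214 to 82271893), averaged 0.55 ± 0.24 FPKM (SD, n = 6) with DMSO/PEG vehicle and 0.11 ± 0.16 FPKM (SD, n = 4) with saline vehicle. The Hoxa11 row starting at 82298152, a paralogue required for kidney formation, ran from 0.07 to 0.85 FPKM with DMSO/PEG vehicle, on at most 29 fragments. The Hoxa4 row starting at 82158892 ran from 0.04 to 0.28 FPKM with DMSO/PEG vehicle and reached 1.29 FPKM in 1 tacrolimus library. Rows of Hoxa9, Hoxa10 and Hoxa13 had no fragment in any library. Symbols also differ between the tables: 12 of the 43 rows, HoxA rows and Hoxc11, carry another symbol in the cyclosporine A table.

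The division of Hox RNA between clusters and positions was compared within libraries. HoxB took 68.1 to 75.1% of the summed Hox FPKM with saline vehicle and 68.7 to 71.5% with cyclosporine A, and HoxD took 22.2 to 27.8% and 25.8 to 29.2%. In the tacrolimus table HoxB took 59.2 to 64.5% with vehicle and 59.2 to 65.0% with drug, and HoxD took 27.5 to 32.6% and 26.6 to 30.7%. By position, paralogues 4 to 8 held most of it, 68.4 to 70.4% with saline vehicle, 67.4 to 74.3% with cyclosporine A, 65.4 to 66.6% with DMSO/PEG vehicle and 64.3 to 67.5% with tacrolimus. Every one of these pairs of ranges overlapped. The shares need no scaling between libraries. In whole kidney, fewer cells of a type and less RNA per cell cannot be told apart, here or below.

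With cyclosporine A, 1 Hox gene rose and none fell at an adjusted p under 0.05 (limma on log2(rescaled FPKM + 1), Benjamini-Hochberg adjustment over 13518 genes), out of 19 members that passed the filter on low values. Over all genes tested 0.607% were called, and 0.325% were called higher. Hoxb4, best known for expanding blood stem cells, was the gene called. Of the 19, 3 (15.8%) had an unadjusted p under 0.05, near the 16.2% of all genes, and the groups did not overlap for 3, Hoxb4 and Hoxd3 upward and Hoxb8 downward, against 10.9% of all genes (4.82% upward, 6.08% downward). The members' median log2 fold change was 0.13, with 13 of 19 above 0, and that of all genes was -0.00014. Members not tested were the 15 HoxA rows, Hoxb1, Hoxb13, Hoxc11, Hoxc12, Hoxc13, Hoxd1, Hoxd11, Hoxd12 and Hoxd13, and 15 of the 19 tested held the equivalent of 10 fragments at the median depth in every library.

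Hoxb4 (chromosome 10, 84167331 to 84169907) read 6.05, 8.82, 7.36 and 8.22 rescaled FPKM in the 4 saline vehicle kidneys. It read 19.4, 22.5, 21.3 and 13.1 rescaled FPKM in the 4 cyclosporine A kidneys. All 4 treated kidneys lay above all 4 controls, and the fourth, the library with the highest mitochondrial share (90.8%), was the lowest of the treated. The log2 fold change was 1.21 with a standard error of 0.18 (95% interval 0.81 to 1.60, limma adjusted p = 0.0253), on 310 to 1070 fragments per library. On deposited FPKM the kidneys read 12.04, 11.01, 11.11 and 13.94 with vehicle and 11.99, 18.3, 15.7 and 5.55 with drug. There the groups overlapped, with a log2 fold change of -0.01 (limma adjusted p = 0.976), while the median gene fell by 0.89 on the log2 scale. The call did not hold in 6 of the 8 fits that left out 1 library (each saline library, and cyclosporine A replicates 1 and 3). In those fits the log2 fold change was 1.11 to 1.27 and the limma adjusted p 0.0503 to 0.0932. Nor did the call hold with no filter on low values (limma adjusted p = 0.0703) or with replicate number as a block.

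**Figure D2:**
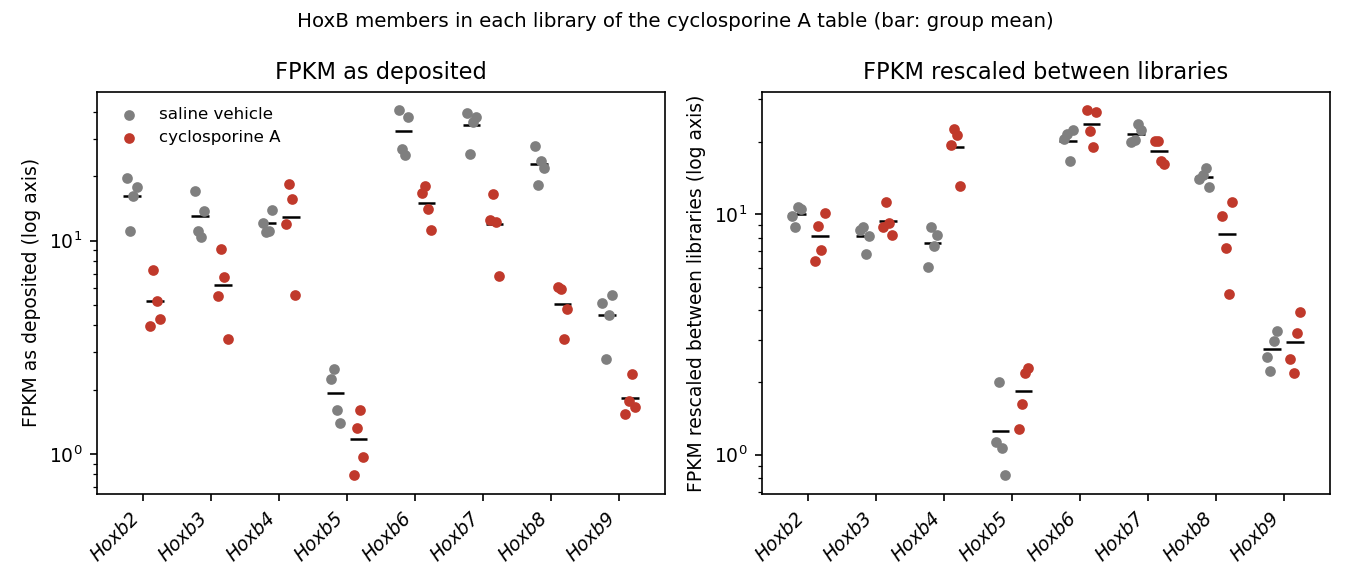
FPKM of 8 HoxB members (horizontal axis) in each library of the cyclosporine A table on a log axis, as deposited on the left and rescaled on the right, with saline vehicle in grey, cyclosporine A in red and bars at the group means. On the left most genes are lower with cyclosporine A, except Hoxb4. On the right Hoxb4 lies at 13.1 to 22.5 against 6.05 to 8.82, and Hoxb8 at 4.68 to 11.3 against 12.9 to 15.6.

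Hoxb4 stood out from its neighbours within the same libraries, a comparison that no scaling between libraries can alter and that was chosen after its values were seen. As a share of summed HoxB FPKM it was 7.29, 10.1, 8.66 and 9.28% with saline vehicle and 20.3, 23.4, 25.5 and 14.3% with cyclosporine A. Its ratio to Hoxb3, the next gene towards the 3′ end, was 0.70 to 1.07 with vehicle and 1.60 to 2.33 with drug. Neither measure overlapped between the groups. In the tacrolimus table the share was 3.76 to 6.05% with vehicle and 4.93 to 6.07% with drug, and these ranges overlapped. The Mir10a row beside Hoxb4 had at most 10 fragments in the cyclosporine A table, too few to compare.

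Hoxb8 (chromosome 10, 84131495 to 84133246) moved the other way on rescaled FPKM without passing the adjusted threshold. It read 14.0, 14.6, 15.6 and 12.9 rescaled FPKM with saline vehicle and 9.82, 7.24, 4.68 and 11.3 with cyclosporine A. Every treated value lay below every control value, with a log2 fold change of -0.78 (SE 0.22, limma adjusted p = 0.126). On deposited FPKM Hoxb8 was called lower (log2 fold change -1.99, limma adjusted p = 0.000268), beside 80.6% of all genes. Its share of HoxB FPKM was 14.6 to 18.3% with vehicle and 5.58 to 12.3% with drug, without overlap. Its ratio to Hoxb7, however, overlapped, with 0.58 to 0.72 in vehicle and 0.28 to 0.70 in drug kidneys. Its direct neighbour Hoxb7 read 20.0, 20.4, 23.7 and 22.4 rescaled FPKM with vehicle and 20.1, 20.2, 16.6 and 16.2 with drug. These groups overlapped, with a log2 fold change of -0.23 (95% interval -0.48 to 0.02, limma adjusted p = 0.345).

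Hoxd3 (chromosome 3, 61658245 to 61670282), a paralogue of the neck and hindbrain region, read 0.91, 1.490, 1.00 and 1.27 rescaled FPKM with saline vehicle and 3.21, 1.497, 1.99 and 2.39 with cyclosporine A. The lowest treated kidney only just exceeded the highest control. The log2 fold change was 0.58 (SE 0.18, limma adjusted p = 0.157), and Hoxd3 as a share of HoxD FPKM, 2.89 to 4.55% against 4.31 to 8.36%, overlapped between groups. On deposited FPKM its log2 fold change was -0.24 (limma adjusted p = 0.277).

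**Figure D3:**
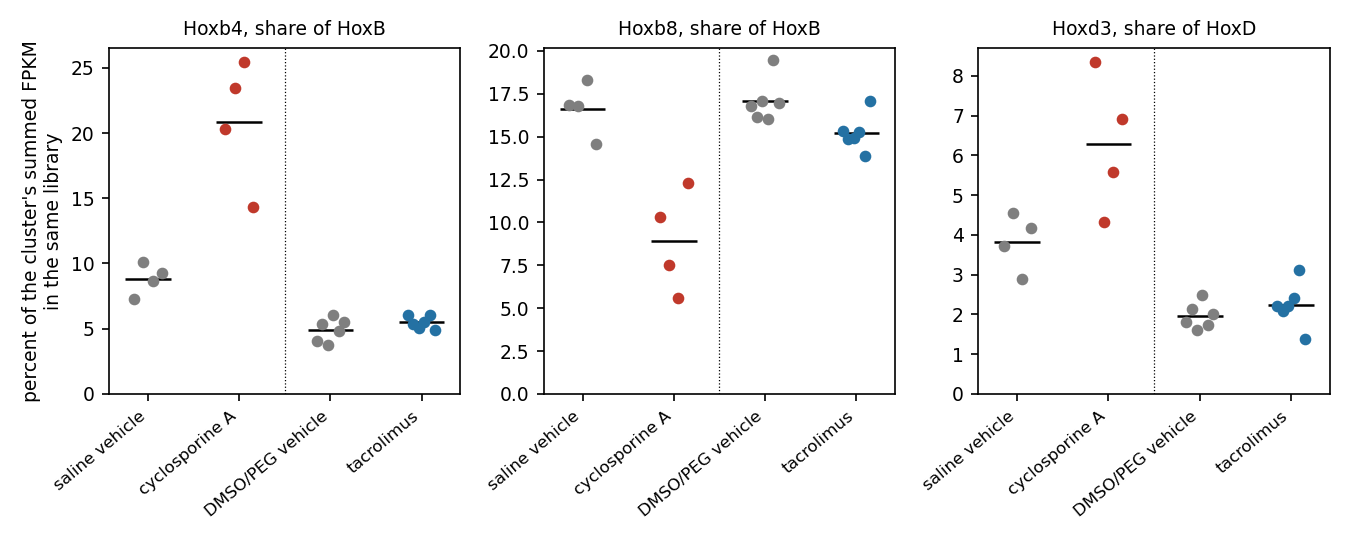
Percent of the cluster's summed FPKM in the same library held by Hoxb4, Hoxb8 (both of HoxB) and Hoxd3 (of HoxD), with points for libraries, bars for group means, and a dotted line between the separately normalized tables. With cyclosporine A, Hoxb4 lies at 14.3 to 25.5% against 7.29 to 10.1% in its vehicle, and Hoxb8 at 5.58 to 12.3% against 14.6 to 18.3%.

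On rescaled FPKM, the remaining abundant members showed small differences that were not called. As deposited, Hoxb2, Hoxb6, Hoxd8 and Hoxd9 were called lower, beside 80.6% of all genes. Hoxb6 read 20.5, 21.5, 16.7 and 22.3 rescaled FPKM with saline vehicle and 27.1, 22.1, 19.0 and 26.5 with cyclosporine A, a log2 fold change of 0.21 (95% interval -0.10 to 0.52). Hoxd8 read 10.4, 13.8, 13.8 and 12.3 rescaled FPKM with vehicle and 18.1, 15.3, 11.4 and 14.8 with drug, a log2 fold change of 0.22 (95% interval -0.11 to 0.55). Both pairs of groups overlapped, and the intervals allow changes of either sign. Hoxb2 had a log2 fold change of -0.28 (95% interval -0.61 to 0.04), Hoxb5 of 0.34 (-0.08 to 0.76) and Hoxd9 of 0.08 (-0.23 to 0.39). The low HoxC members were less precise, as Hoxc6 (log2 fold change -0.18, 95% interval -0.70 to 0.34) and Hoxc10 (-0.17, -0.70 to 0.36) show. Hoxc4, Hoxc5, Hoxc8 and Hoxc9 held 10, 0, 5 and 1 fragments in the library where each was lowest.

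Read as deposited, the same members gave another count. On those values 12 of 19 members were called, all lower, beside 80.8% of all genes called and 80.6% called lower, and 10 were lower without overlap beside 67.6% of all genes. The members' median log2 fold change was -0.83 and that of all genes -0.89. Deposited FPKM thus moved Hox genes and most other genes together, in the direction of the nuclear fragment totals given above.

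With tacrolimus, no Hox gene was called out of 22 tested members, where 0.303% of all 15493 genes tested were (limma on log2(deposited FPKM + 1), Benjamini-Hochberg adjustment). An unadjusted p under 0.05 was found for 2 of 22 (9.09%), near the 8.58% of all genes, and 1 member had one when weighted fits on recovered fragments (voom) were used, which called 0. No member's groups were free of overlap, against 0.975% of all genes. The median log2 fold change of the members was 0.07, with 15 of 22 above 0, and that of all genes was -0.00033. Members not tested were the HoxA rows other than Hoxa7, Hoxb1, Hoxb13, Hoxc12, Hoxc13, Hoxd1, Hoxd12 and Hoxd13.

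The members with the smallest p, Hoxc4 and Hoxa7, were low in level. Hoxc4 ran from 0.80 to 1.80 FPKM with DMSO/PEG vehicle (median 1.34) and from 1.32 to 2.06 FPKM with tacrolimus (median 1.86). The log2 fold change was 0.25 (SE 0.11, limma adjusted p = 0.514). Hoxa7 ran from 0.24 to 0.84 FPKM with vehicle (median 0.51) and from 0.55 to 0.92 FPKM with tacrolimus (median 0.81), a log2 fold change of 0.21 (SE 0.10, limma adjusted p = 0.563) on 6 to 24 fragments. Hoxc6, a thoracic gene, ran from 6.79 to 9.08 FPKM (median 7.34) and from 7.75 to 10.1 FPKM (median 8.72), and Hoxc10 from 5.63 to 8.05 FPKM (median 6.23) and from 5.68 to 8.26 FPKM (median 7.81). All 4 pairs of groups overlapped.

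The abundant members also overlapped between groups. Hoxb7 ran from 32.3 to 40.4 FPKM with vehicle (median 38.4) and from 34.4 to 39.3 FPKM with tacrolimus (median 36.4), and its log2 fold change of -0.03 had a 95% interval of -0.16 to 0.11. Hoxd8 ran from 37.6 to 51.2 FPKM (median 40.1) and from 35.7 to 42.6 FPKM (median 38.1), with an interval of -0.27 to 0.06. Changes beyond those bounds lie outside what the intervals allow for these genes. Hoxb6 ran from 33.2 to 57.7 FPKM (median 40.6) and from 35.5 to 59.9 FPKM (median 51.9), with an interval of -0.12 to 0.55. Hoxb2, from 21.1 to 28.2 FPKM (median 24.9) and from 22.8 to 30.5 FPKM (median 26.9), had an interval of -0.06 to 0.29, and Hoxd9, from 16.5 to 29.5 FPKM (median 22.6) and from 21.6 to 25.7 FPKM (median 23.0), one of -0.17 to 0.33. These intervals allow changes of either sign. Hoxb8 ran from 23.8 to 33.1 FPKM (median 30.7) and from 24.7 to 29.7 FPKM (median 27.2), with an interval of -0.27 to 0.10. Hoxb4 ran from 5.69 to 11.9 FPKM (median 7.86) and from 7.50 to 11.2 FPKM (median 10.7), with a log2 fold change of 0.23 and an interval of -0.09 to 0.55. Hoxb4 and Hoxb8, which on rescaled FPKM separated the groups in the cyclosporine A table, thus overlapped here. The difference between the drugs was not tested.

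**Figure D4:**
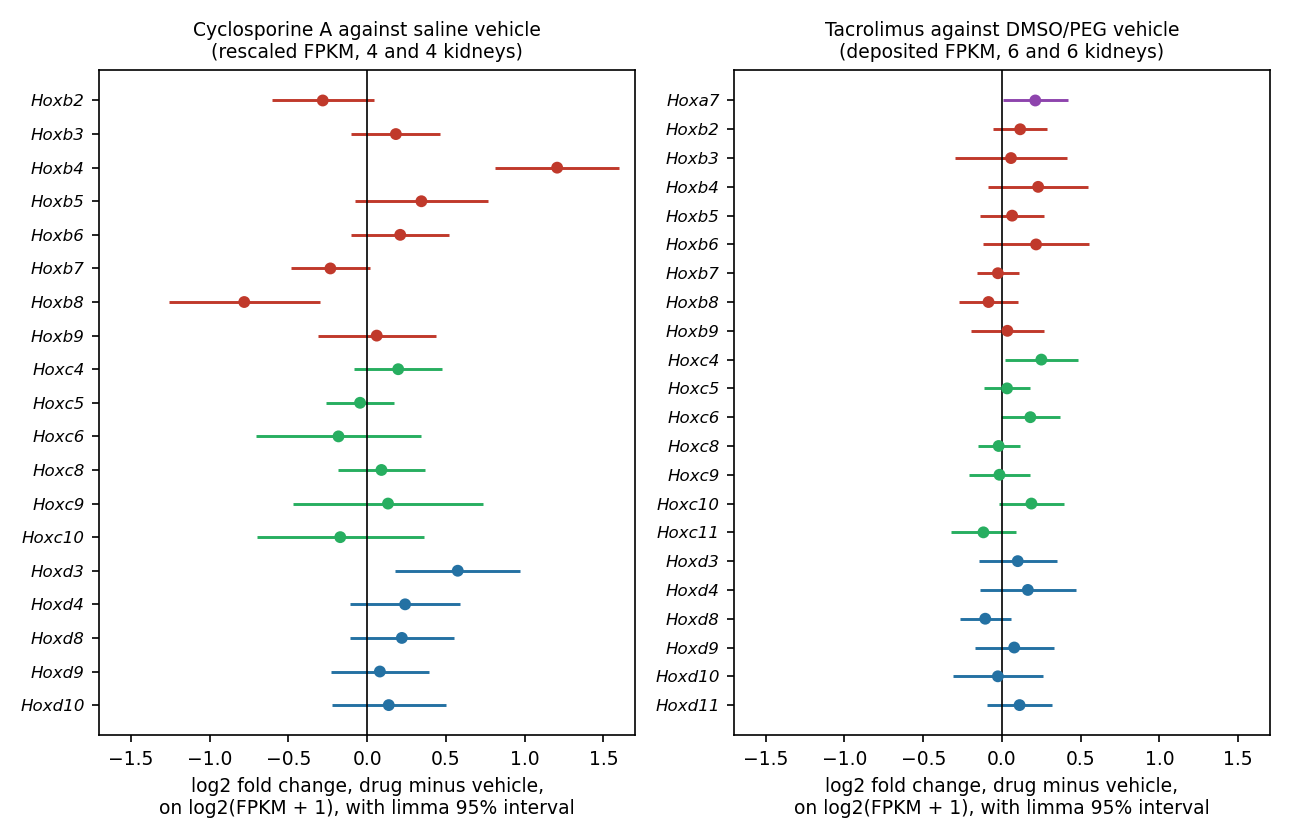
Log2 fold change, drug minus vehicle, on log2(FPKM + 1) for each tested member (points, with limma 95% intervals; red HoxB, green HoxC, blue HoxD, purple HoxA), cyclosporine A on the left (rescaled FPKM, 19 members) and tacrolimus on the right (22 members). Hoxb4 at 1.21, Hoxb8 at -0.78 and Hoxd3 at 0.58 lie farthest from 0 on the left, and no member on the right exceeds 0.25.

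Genes that act with or on the clusters were examined as lists, on rescaled FPKM for cyclosporine A. Among TALE cofactors 0 of 10 tested were called with cyclosporine A (median log2 fold change 0.09) and 0 of 10 with tacrolimus (0.08). Polycomb genes gave 0 of 22 and 0 of 23, trithorax genes 0 of 11 and 0 of 13, regulators of the nephric lineage 0 of 11 and 0 of 14, and genes next to the clusters 0 of 8 and 0 of 11. As deposited, the cyclosporine A values gave calls lower for 8 of 10 TALE cofactors, 22 of 22 Polycomb, 11 of 11 trithorax, 8 of 11 nephric, 7 of 8 neighbouring and 7 of 14 retinoic acid genes, beside the 80.6% of all genes called lower. Evx1 and Evx2, the homeobox genes next to the 5′ ends of HoxA and HoxD, were at 0 in all libraries. Of retinoic acid genes, 2 of 14 rose with cyclosporine A and none of 15 changed with tacrolimus. Aldh1a1, a retinaldehyde dehydrogenase, went from 45.8 ± 3.45 to 72.0 ± 6.01 rescaled FPKM (SD, n = 4 each), a log2 fold change of 0.64 (limma adjusted p = 0.0321). On deposited FPKM the direction turned and it was called lower, with a log2 fold change of -0.67 (limma adjusted p = 0.0407).

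Markers of kidney cell types moved in both comparisons. With cyclosporine A, on rescaled FPKM, 1 of 6 urothelium markers rose (Upk1a, log2 fold change 1.51), 5 of 6 were above 0 with a median of 0.75, and the list's summed level was 4.21 to 15.2 against 11.4 to 20.9 rescaled FPKM. The smooth muscle list summed to 15.4 to 17.2 with vehicle and 20.4 to 39.8 with drug, with 1 of 7 called. Principal cell markers, of the collecting duct where Hoxb7 is known, gave 0 of 8 called, 8 of 8 above 0 with a median log2 fold change of 0.35, and sums of 114 to 196 against 129 to 270. Of 8 proximal tubule markers 2 were above 0 and 1 was called (Slc5a2, log2 fold change 0.94). Slc5a2 was low in this table, averaging 0.28 rescaled FPKM with saline vehicle and 1.47 with cyclosporine A. The proximal tubule list's median was -0.32, and its sum went from between 500 and 731 to between 257 and 590 rescaled FPKM. Of 5 thick ascending limb markers 1 fell (Umod, log2 fold change -1.36), with a list median of -0.38 and sums of 318 to 573 against 155 to 254. Of 5 distal convoluted tubule markers 1 fell (Calb1, log2 fold change -1.85), with a list median of -0.06, 2 of 5 above 0, and sums of 54.2 to 79.3 against 25.4 to 35.1. As deposited, Upk1a was not called (log2 fold change 0.57, limma adjusted p = 0.0710), and 6 of 8 proximal tubule, 5 of 5 thick ascending limb and 6 of 8 principal cell markers were called lower. With tacrolimus, 5 of 5 tested distal convoluted tubule markers fell, their summed level going from 291 to 366 down to 51.1 to 78.7 FPKM, while Pvalb was at 0 in every library. The part of these cell type markers, and of the mitochondrial share, in the Hox values was not tested.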

How the data were processed

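Total RNA of 20 kidneys was sequenced after library preparation with an NEBNext kit, per the labels' protocols. The submitters' processing notes name HISAT2 and rn6, and other steps are not given in the sources used here. The deposited values are FPKM per gene. Fragments were recovered from the FPKM steps: with the listed length, 100% of values above 0 were whole (within 0.001) in the tacrolimus table and 74.1% in the cyclosporine A table, where the rest are equivalents. Genes were tested if libraries numbering at least the smaller group held the equivalent of 10 fragments at the median depth, with 15 in all. limma 3.58.1 (R 4.3.3, empirical Bayes trend) was fitted on log2(FPKM + 1) with group as the term, so fold changes of low genes are understated. The tests were checked on simulated data.

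Members, lists, and the rescaling of the cyclosporine A table were chosen with earlier results of these data known. Members described singly were the 2 highest per cluster in vehicle kidneys, every called member and the 6 with the smallest p in each comparison, and others appear in the levels. List genes are named where called, apart from results not reported here. The other marker lists (stroma, endothelium, podocyte, intercalated cell, inner medulla, immune, adipocyte) gave 0 calls on the main values, except Ucp1 of the adipocyte list, which fell with tacrolimus (log2 fold change -3.33). As deposited, the cyclosporine A values called lower 4 of 6, 7 of 7, 2 of 6, 6 of 6, 5 of 6, 5 of 6 and 3 of 4 of them, in that order. The labels do not say whether each sample came from its own animal, and p-values then measure only the spread between these samples. Same-numbered libraries of drug and vehicle did not consistently deviate together.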

Additional observations from a re-analysis of the deposited data

Results flagged for a closer look

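In 3 of 82 groups examined (each tested member in each group of 4 or 6 kidneys), 1 kidney lay far from the rest by Dixon's gap test, which chance alone marks in about 1 in 20. Hoxc4 read 0.861 rescaled FPKM in cyclosporine A replicate 2, and the next kidney 0.436, a gap of 0.850 of the group's range. Hoxb3 read 10.2 FPKM in tacrolimus replicate 6, and the next kidney 16.4, a gap of 0.638 of the range. Hoxc10 read 8.05 FPKM in DMSO/PEG vehicle replicate 5, and the next kidney 6.43, a gap of 0.671 of the range.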

How the results depend on the processing

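Of the comparisons of single named members with their alternatives, 451 kept direction and side of the threshold, 10 changed sign, 5 newly passed in the same direction and 8 no longer passed. Of the sign changes, those of Hoxb6, Hoxd8 and Hoxd9 on deposited values were also past the threshold. With cyclosporine A, the count of members called was 12 on deposited values, 0 with no filter on low values and 0 with a replicate block. It was 0 to 1 when 1 library was left out, and 1 under the other alternatives. The count over all genes, 82, became 10918 on deposited values, 53 with a pseudocount of 0.01, 1 with no filter, 242 with voom, 6 with a replicate block, and 1 to 140 with 1 library left out. On deposited values the log2 fold change turned to -0.0103 for Hoxb4, -0.43 for Hoxb5, -1.06 for Hoxb6 and -0.17 for Hoxc4. It turned to -0.24 for Hoxd3, -1.02 for Hoxd8 and -1.13 for Hoxd9, beside -0.89 for the median gene. Hoxb4 had a limma adjusted p of 0.0703 with no filter, 0.0654 with the replicate block and 0.0080 with voom (log2 fold change 1.36). With 1 library left out, 3 differences near 0 changed sign: with cyclosporine A, Hoxc10 ranged from -0.33 to 0.0077 (above 0 without saline vehicle replicate 4) and Hoxd9 from -0.019 to 0.15 (below 0 without saline vehicle replicate 1), and with tacrolimus Hoxd9 ranged from -0.00071 to 0.16 (below 0 without DMSO/PEG vehicle replicate 1). With tacrolimus 0 members were called under every alternative run, and the replicate block gave 44 genes in all against 47. Replicate numbers showed no consistent pairing of the samples. The correlation of same-numbered deviations was -0.149 to 0.212 for cyclosporine A and -0.151 to 0.182 for tacrolimus. So few libraries cannot exclude a pairing. The cause of the lost call under the block and without a filter was not tested. Depth limits low members such as Hoxc5 and Hoxc9, which had 0 and 1 fragments in their lowest cyclosporine A table library.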

Other observations

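The cyclosporine A table gives Hox symbols to 7 rows of HoxA that have other names in the tacrolimus table and so lie outside the 43: Hoxa3, Hoxa5 (3 rows), Hoxa6, Hoxa7 and Hoxa9. The row named Hoxa9 there (LOC103692128, chromosome 4, 82278758 to 82280722) ran from 0.27 to 1.97 FPKM with DMSO/PEG vehicle (median 0.37) and from 0.50 to 3.64 FPKM with tacrolimus (median 0.61), on up to 118 fragments. In the cyclosporine A table it had at most 3 fragments. The row named Hoxa5 at chromosome 4, 82170387 (LOC103689922) ran from 0.18 to 0.70 FPKM with DMSO/PEG vehicle and from 0.19 to 0.50 FPKM with tacrolimus. HoxA RNA in these kidneys is thus spread over more rows than those described above. Mir196b-2 (chromosome 4, 82284851) and Mir615, which lies inside the Hoxc5 row, had at most 3 and 4 fragments per library in the tacrolimus table.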
